A study of Oryza sativa Japonica Group with 3 samples.

Results

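The 10 loci described here encode expansins of rice (Oryza sativa, Japonica group). They were taken as a listed set out of 55759 annotated loci in the deposited files and comprise 6 alpha-expansins (EXPA1, EXPA2, EXPA3, EXPA4, EXPA5 and EXPA8) and 4 beta-expansins of chromosome 10 (EXPB6, EXPB2, EXPB3 and EXPB4). All 10 were detected in every library, each as a single annotated transcript. The mRNA was sequenced from whole seedlings of the cultivar Xindao-18 after 96 h on wet filter paper at 28 °C, under 12 h of light and 12 h of darkness. The control came from seed that was not implanted. The low fluence library came from seed implanted with low-energy nitrogen ions at 1 and 2, and the high fluence library at 6 and 8, each times 1e+17 N+ per cm2 (the labels print the exponent on the line). Each fluence had its own RNA pool from 50 buds matched for height, and equal amounts, 10 µg, from a pair of pools were combined, so the effect of a single fluence cannot be told apart within a library. The labels describe the low fluences as giving no significant growth inhibition and the high ones as giving it, by day 7 and therefore after sampling.

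Expansins are proteins of the plant cell wall that loosen it at acid pH without cutting its polymers, so that turgor can stretch the growing cell. Alpha-expansins act on the contacts of cellulose with the surrounding matrix, whereas beta-expansins, a family enlarged in grasses, act on the arabinoxylan-rich matrix of grass walls. In seedlings their mRNAs are typical of elongating tissue such as the coleoptile, the mesocotyl, the leaf base and the root growth zone.

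Each group was 1 library of pooled RNA, so no difference below could be set against a spread between replicates and no p-value is given. Levels are FPKM, fragments scaled to transcript length and to the number of mapped fragments, which can be compared between genes. Annotated loci averaging 1 FPKM or more over the 3 libraries are called measured below, and those averaging 10 FPKM or more well expressed. Folds and log2 ratios were computed on FPKM + 1, and a ratio of at least 2 was counted as a difference. FPKM carries no read totals, and the relative depth read from the steps between the lowest values put the low fluence library at 0.499 times, and the high fluence library at 1.36 times, the control. In whole seedlings, fewer expressing cells and less mRNA per cell cannot be told apart. The files give locus identifiers without gene names, so the labelled tissue was not checked against marker genes here.

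The summed level of the 10 expansins as deposited was highest in the control and lowest at high fluence. It was 511 FPKM in control seedlings, 397 after low fluence and 275 after high fluence, that is 77.6% and 53.8% of the control. The 4 beta-expansins made up most of it, with 378, 292 and 191 FPKM, against 133, 105 and 83.9 FPKM for the 6 alpha-expansins. At high fluence the beta sum was 50.4% of the control and the alpha sum 63.3%. As a share of the FPKM of all annotated loci, the 10 loci held 0.0840% in the control, 0.0675% after low fluence and 0.0519% after high fluence. Per 1000000 FPKM of all transcripts, assembled ones included, they held 170.0 in control seedlings, 119.5 after low fluence and 166 after high fluence, so that the low fluence library was the lowest. The FPKM sum of all transcripts itself differed, at 3.01e+06, 3.32e+06 and 1.65e+06 in the same order. That of annotated loci was 607972, 587530 and 528840, so annotated loci as a whole held a larger share at high fluence.

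At high fluence, 6 of the 10 expansins were at least 2-fold below the control and none was at least 2-fold above it. The lower ones were EXPA1, EXPA3, EXPA8, EXPB6, EXPB2 and EXPB4. Of the 18934 measured loci, 6.33% were lower by this mark and 4.23% higher. Among the 9265 well expressed loci, which include every member but EXPA5, 5.20% were lower. The median log2 ratio of the 10 expansins was -1.20, against -0.10 over all measured loci. With libraries rescaled to the FPKM sum of all transcripts, the median log2 ratio of all measured loci moved to 0.56. None of the 10 was then 2-fold lower and 1 (EXPA4) was 2-fold higher, where 1.21% of measured loci were lower and 16.8% higher. The median of the 10 under this rescaling was -0.36. The 6 lower members stayed below control under that and every other scaling tried, whereas EXPA2 and EXPB3 were slightly above control under that one.

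**Figure D1:**
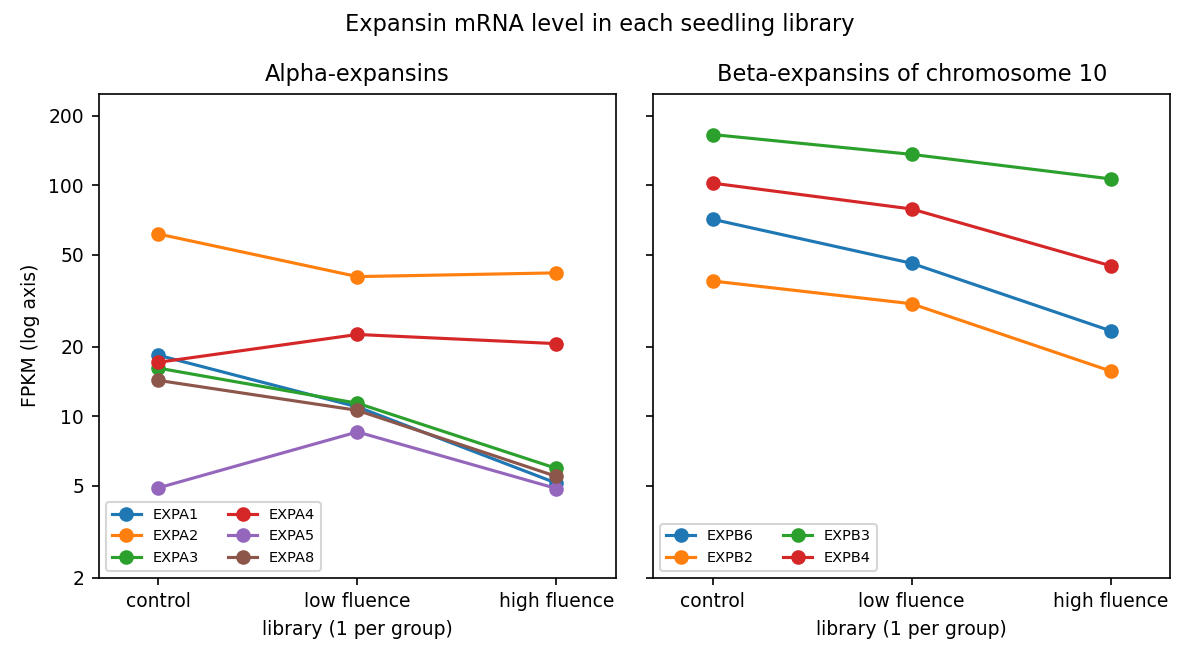
FPKM of each expansin (log axis) in the control, low fluence and high fluence libraries, with alpha-expansins in the left panel and beta-expansins in the right panel; each point is 1 library and lines join the values of 1 gene. All 4 beta-expansins descend from control to high fluence, EXPB3 from 166 to 107 FPKM and EXPB6 from 71.3 to 23.5, while EXPA4 stands at 17.1 FPKM in the control and 20.7 at high fluence. With libraries rescaled to the sum of all transcripts, all 4 beta-expansins were higher at high than at low fluence. The median log2 ratio of all measured loci was then 0.72. EXPB3 was also higher than in the control, with a log2 ratio of 0.22, where all measured loci had a median of 0.56.

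Among the alpha-expansins, EXPA1 (LOC_Os04g15840, chromosome 4) differed most. It read 18.4 FPKM in control seedlings, 11.0 after low fluence and 5.14 after high fluence. EXPA1 was thus 1.62-fold below control at low fluence and 3.16-fold below at high fluence, where 1.26% of well expressed loci had a lower ratio. EXPA3 (LOC_Os05g19570, chromosome 5) stood at 16.2, 11.4 and 5.95 FPKM, 1.39-fold and 2.47-fold below control. EXPA8 (LOC_Os01g14650, chromosome 1), whose overexpression in rice is known to enlarge the root system, stood at 14.3, 10.6 and 5.50 FPKM, 1.32-fold and 2.36-fold below. These 3 genes lay within 14.3 to 18.4 FPKM in the control and within 5.14 to 5.95 FPKM at high fluence, with the low fluence library between.

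EXPA2 (LOC_Os01g60770, chromosome 1), the most abundant alpha-expansin in every library, took another course. Its level was 61.6 FPKM in control seedlings, 40.3 after low fluence and 41.8 after high fluence. The low fluence value was 1.52-fold below control and the high fluence value 1.46-fold below, neither reaching the 2-fold mark. Both irradiated libraries therefore lay close to each other for EXPA2, with a log2 ratio of 0.05 between them. At low fluence, 4.02% of well expressed loci had a lower ratio than EXPA2, and at high fluence 19.2% did.

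EXPA4 and EXPA5 were the members that stood above control at low fluence. EXPA4 (LOC_Os05g39990, chromosome 5), for which reduced expression is known to shorten rice plants and coleoptiles, had 17.1 FPKM in control seedlings, 22.6 after low fluence and 20.7 after high fluence. Its folds over control were 1.30 and 1.19, below the 2-fold mark. EXPA5 (LOC_Os02g51040, chromosome 2), the least abundant member, had 4.90 FPKM in control seedlings, 8.56 after low fluence and 4.87 after high fluence. EXPA5 was thus 1.62-fold above control at low fluence and level with it at high fluence, with a log2 ratio of -0.01 that turned positive under 5 of 9 alternatives. At low fluence 93.7% of measured loci had a lower ratio than EXPA5, which is not well expressed. For EXPA4, 90.0% of well expressed loci had a lower ratio.

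The beta-expansins EXPB6, EXPB2, EXPB3 and EXPB4 carry the consecutive numbers LOC_Os10g40700, LOC_Os10g40710, LOC_Os10g40720 and LOC_Os10g40730. In the RefSeq gene table of assembly ASM3414082v1, the genes of these names also follow one another, in the same order. Beta-expansin mRNAs of rice, EXPB3, EXPB4 and EXPB6 among them, are known from the elongating internodes of deepwater rice, and EXPB2 is known to act in root growth.

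EXPB3 was the most abundant of the 10 members in all 3 libraries, with 166 FPKM in control seedlings, 136 after low fluence and 107 after high fluence. EXPB3 was 1.22-fold and 1.55-fold below control and so stayed short of 2-fold. EXPB4 came next with 102, 79.0 and 44.9 FPKM, 1.29-fold and 2.25-fold below control. EXPB6 stood at 71.3, 46.0 and 23.5 FPKM, and its 1.54-fold and 2.96-fold lower values made it the member of the cluster that differed most. EXPB2, the least abundant of the cluster, had 38.6, 30.7 and 15.7 FPKM, 1.25-fold and 2.37-fold below control. All 4 descended in the order control, low fluence, high fluence as deposited. With libraries rescaled to the sum of all transcripts, all 4 were higher at high than at low fluence. Their log2 ratios were then 0.03 (EXPB6 and EXPB2), 0.18 (EXPB4) and 0.64 (EXPB3), against a median of 0.72 over all measured loci. The rank of the 4 genes by level was alike in the 3 libraries. Neighbouring copies of one family can share reads. How such reads were assigned is not stated in the labels, so the division of FPKM among the 4 genes is uncertain.

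**Figure D2:**
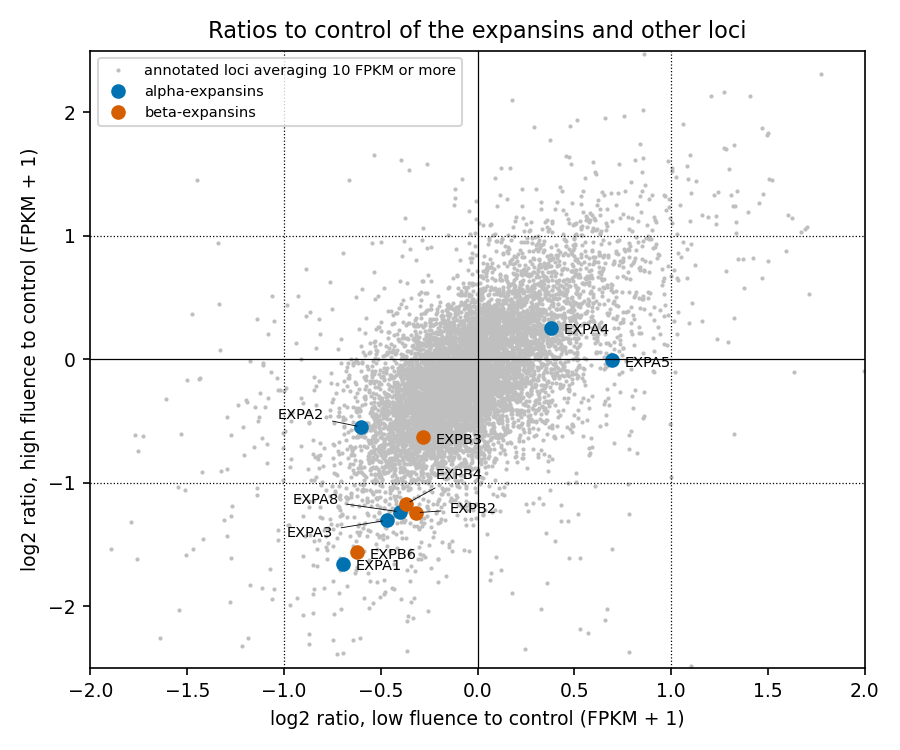
Log2 ratio of FPKM + 1 to the control at low fluence (x axis) and at high fluence (y axis), with grey dots for well expressed annotated loci (64 of 9265 lie outside the axes), blue points for alpha-expansins and orange points for beta-expansins; dotted lines mark 2-fold. EXPA1, EXPA3, EXPA8, EXPB6, EXPB2 and EXPB4 lie below the 2-fold line at high fluence, at -1.17 to -1.66, while EXPA4 and EXPA5 lie right of 0 at low fluence, at 0.38 and 0.70. Both axes share the control library, and with libraries rescaled to the sum of all transcripts EXPA2 and EXPB3 lie above 0 at high fluence. The median of all measured loci was then also above 0, at 0.56.

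Low fluence against control gave no expansin past 2-fold in either direction. Over measured loci, 3.52% lay at least 2-fold lower and 3.06% at least 2-fold higher in this comparison. The median log2 ratio of the 10 expansins was -0.38, against -0.05 over those loci. A total of 8 members were below control by any amount and EXPA4 and EXPA5 above it, while 56.0% of all these loci were below control. At a ratio of at least 1.5 in place of 2, EXPA1, EXPA2 and EXPB6 counted as lower and EXPA5 as higher, where 9.07% of measured loci were lower and 8.49% higher.

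High against low fluence also gave no expansin past 2-fold. The labels describe these fluences as inhibiting and not significantly inhibiting growth by day 7, which was after the sequenced seedlings were taken. The share of all loci was 4.56% lower and 3.61% higher. EXPA1, EXPB6 and EXPB2 came nearest to the mark, at 1.95-fold, 1.92-fold and 1.90-fold lower, and the least lower of the 6 members set out above was EXPB4 at 1.74-fold. The median log2 ratio of the 10 members was -0.82, against -0.06 over all loci; rescaled to the sum of all transcripts it was 0.10, where that of all loci was 0.72. At a ratio of at least 1.5, 7 members counted as lower, EXPA5 joining the 6, where 13.2% of measured loci were lower.

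As deposited, 7 expansins stood in the order control above low fluence above high fluence, EXPA1, EXPA3, EXPA8 and the 4 beta-expansins, but with libraries rescaled to the sum of all transcripts only EXPA1 did. In the deposited values, that order was found in 28.6% of measured and in 35.5% of well expressed loci. Its share of loci under the rescaling was not counted. In the 7 genes the difference at low fluence was 25.6% (EXPB2) to 44.7% (EXPB3) of that at high fluence on the log2 scale, so that the larger step lay between low and high fluence. This held for 6 of the 7 with the annotated sum rescaled or with centring by expression bin, and for 0 of the 7 with the sum of all transcripts. The share of all loci with the larger step there was not counted, so it cannot be called particular to expansins. The comparisons with control share the control library, so a low or high value there moves both.

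The proportions among expansins within a library do not depend on how libraries are scaled, and they too differed. They rest on the same FPKM as the ratios above and are no separate evidence. In the control, EXPA4 and EXPA1 were nearly equal, with an EXPA4 to EXPA1 ratio of FPKM of 0.932. This ratio was 2.06 after low fluence and 4.02 after high fluence. EXPA4 and EXPA1 had the highest and lowest log2 ratios to control at high fluence among the alpha-expansins, 0.25 and -1.66. The shift of their ratio from control to high fluence is therefore the widest among pairs of these genes. By level among the 6 alpha-expansins, EXPA1 ranked 2 in the control, 4 after low fluence and 5 after high fluence, whereas EXPA4 ranked 3, 2 and 2. In the control EXPA1, EXPA4 and EXPA3 lay close together, at 18.4, 17.1 and 16.2 FPKM. EXPA4 held 12.9% of the alpha sum in control seedlings, 21.7% after low fluence and 24.6% after high fluence, and EXPA1 held 13.9%, 10.5% and 6.13%. EXPA2 held 46.5%, 38.6% and 49.8%. The spread of such proportions between seedling pools of one treatment is unknown.

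Within the beta cluster the balance of FPKM lay further towards EXPB3 at high fluence, though the division among these genes is uncertain because neighbouring copies can share reads. EXPB3 held 43.9% of the beta sum in control seedlings, 46.7% after low fluence and 55.9% after high fluence, while EXPB6 held 18.9%, 15.8% and 12.3%. The ratio of EXPB3 to EXPB6 was 2.33, 2.96 and 4.55 in the same order. This pair too is the least and the most lowered of the cluster at high fluence, with log2 ratios of -0.63 and -1.56. EXPB6 to EXPB2 was 1.85 in the control and 1.49 after high fluence.

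**Figure D3:**
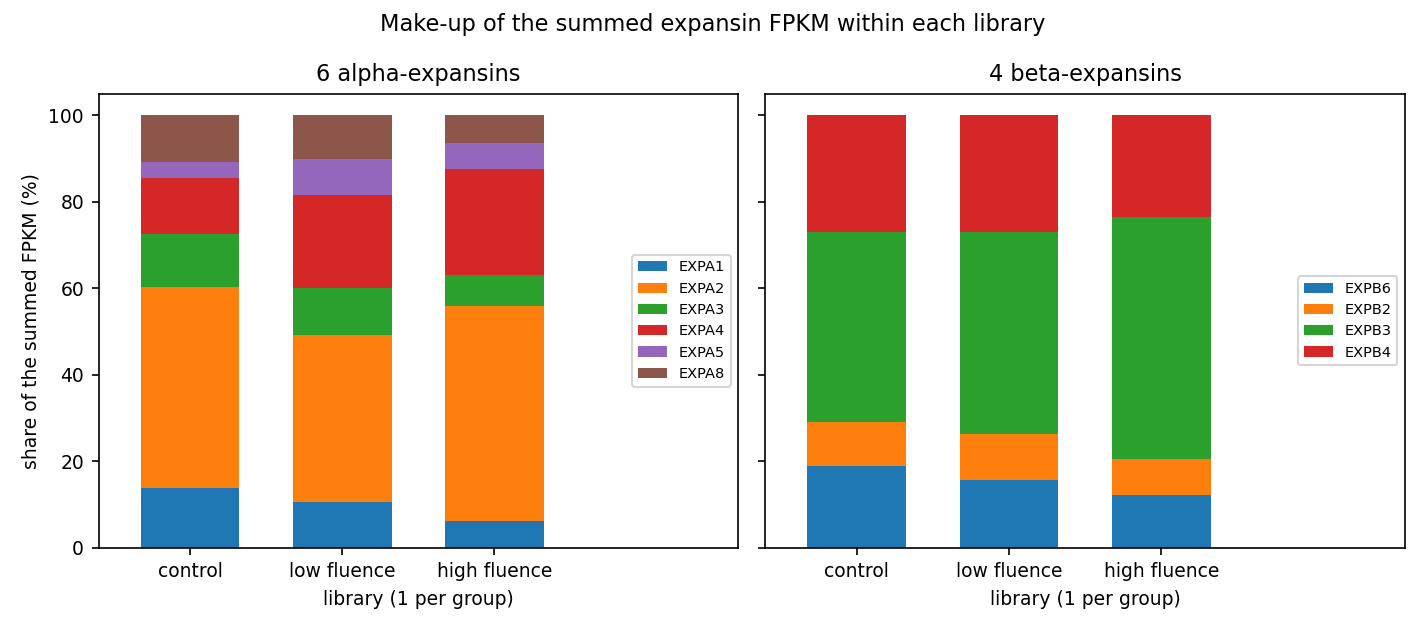
Share of each gene in the summed FPKM of the 6 alpha-expansins (left) and of the 4 beta-expansins (right) in percent, with 1 stacked bar per library. EXPA4 takes 12.9% of the alpha sum in the control and 24.6% at high fluence, and EXPB3 takes 43.9% and 55.9% of the beta sum. These shares are the same under every scaling of whole libraries. The division among the 4 beta-expansins is uncertain, as neighbouring copies can share reads.

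Loci numbered beside the members were then compared. Of the 25 annotated loci from LOC_Os10g40600 to LOC_Os10g40900 that are no members, 11 were measured. Of these 11, 1 was at least 2-fold lower at high fluence, against 3 of the 4 beta-expansins, and none was at least 2-fold higher. That locus was LOC_Os10g40600, with 50.3 FPKM in control seedlings, 46.4 after low fluence and 22.9 after high fluence. The median log2 ratio of the 11 at high fluence was -0.53, and that of the 4 beta-expansins was -1.21. Only 3 of the 11 were well expressed, as all 4 beta-expansins were. Of these 3, LOC_Os10g40600 alone was 2-fold lower, and their median was -0.54. The measured loci nearest by number were LOC_Os10g40660, at 4.18, 3.42 and 2.60 FPKM, and LOC_Os10g40740, at 1.82, 3.65 and 4.02 FPKM. These values lie below those of all 4 beta-expansins in each library.

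**Figure D4:**
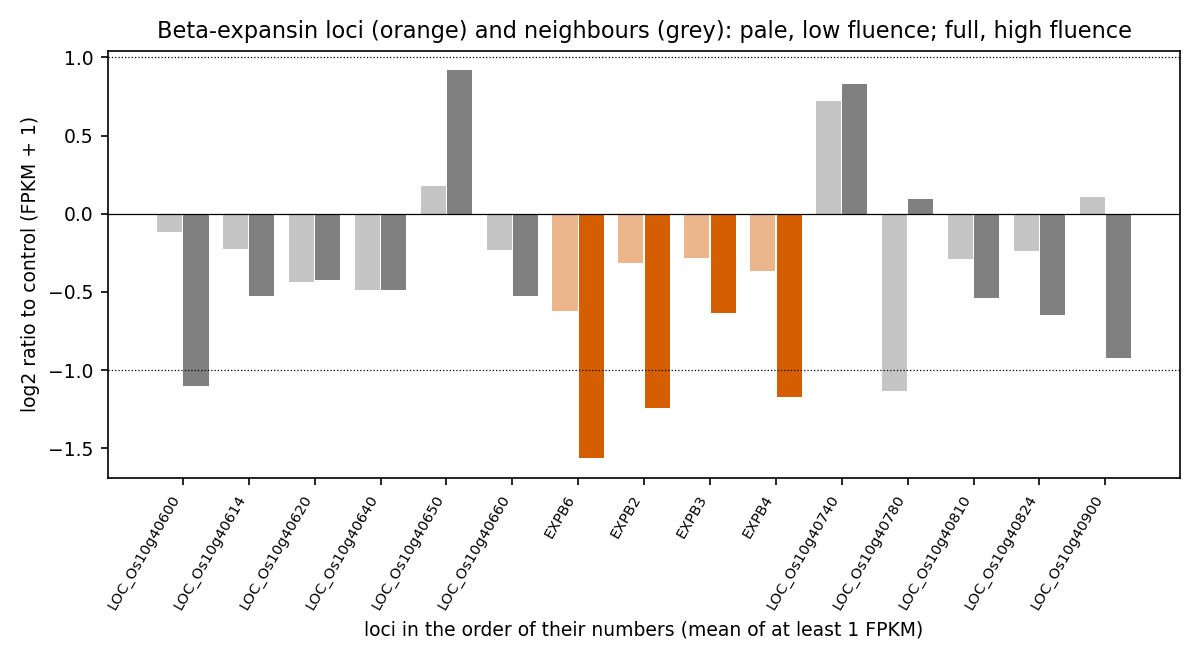
Log2 ratio of FPKM + 1 to the control for the 4 beta-expansins (orange) and the 11 other measured loci (grey) from LOC_Os10g40600 to LOC_Os10g40900, ordered by locus number and not to scale of distance; pale bars are low fluence, full bars high fluence, and dotted lines mark 2-fold. EXPB6, EXPB2 and EXPB4 lie past 2-fold at high fluence, at -1.56, -1.24 and -1.17, and LOC_Os10g40600 at -1.10. With libraries rescaled to the sum of all transcripts no member was 2-fold lower (1.21% of measured loci were), and EXPB3 was higher than control. The median log2 ratio of all measured loci was then 0.56.

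Around the alpha-expansins, 16 other measured loci had numbers within 30 of a member. Their median log2 ratio at high fluence was -0.23, with 1 lower and 1 higher by at least 2-fold. The lower one averaged 3.93 FPKM. The higher one averaged 1.02 FPKM and read 0.000445 FPKM in the control, so neither was well expressed. Near EXPA4, though not next to it by number, LOC_Os05g40010 had 56.7 FPKM in control seedlings, 100.1 after low fluence and 71.2 after high fluence. Its highest value was thus also at low fluence. LOC_Os05g39960, on the other side, stood at 384, 285 and 229 FPKM. Near EXPA5, LOC_Os02g51070 was highest at low fluence (13.4 FPKM), LOC_Os02g51020 at high fluence (15.3) and LOC_Os02g51060 in the control (23.6). LOC_Os01g60790 near EXPA2 and LOC_Os01g14670 near EXPA8 were highest in the control (110 and 150 FPKM).

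Assembled transcripts, which the files list without a gene, were looked up beside the members. Within 3 rows, 8 of the 10 members had such a unit, and EXPA2, EXPA4 and EXPB3 had one directly beside them. CUFF.2097, beside EXPB3, had 0.999 FPKM in control seedlings, 2.39 after low fluence and 2.54 after high fluence. CUFF.1582, beside EXPA2, stood at 4.05, 2.63 and 4.90 FPKM, and CUFF.9964, beside EXPA4, at 7.72, 7.96 and 7.46. Adding these to the members left 6 expansins at least 2-fold lower at high fluence. CUFF.428, which is 2 rows from EXPA8, stood at 135, 116 and 65.5 FPKM, and whether it overlaps EXPA8 was not tested.

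Loci other than the 10 members with the most similar pair of ratios to control were looked up among the 9256 well expressed loci left, which may include other expansins, by Euclidean distance over the 2 log2 ratios. For EXPB6 these were LOC_Os01g41120, at 37.7, 24.4 and 12.1 FPKM and a distance of 0.01, and LOC_Os04g46830, at 34.7, 22.8 and 11.2 FPKM and a distance of 0.04. For EXPA1 they were LOC_Os01g07420, at 91.2, 55.8 and 28.8 FPKM, and LOC_Os03g36560, at 51.7, 31.2 and 16.2 FPKM. Between 24 loci (EXPA1) and 119 loci (EXPB4) lay within 0.2 of each of the 6 lower expansins, so with 3 libraries many loci share such a course.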

How the data were processed

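Messenger RNA of 3 libraries, 1 per group, was used. The authors deposited 1 FPKM value for each transcript (file headers). Reads were aligned with TopHat2 2.0.5 according to the submitters' processing notes. The estimation of FPKM, the genome build, the annotation and the handling of strand and of reads with several matches are details not given in the sources used here. FPKM was summed per locus identifier and compared as log2 ratios of FPKM + 1, with a 2-fold mark over loci averaging 1 FPKM or more, in Python 3.11.15 with pandas 2.3.3 and numpy 2.4.6. Calculations were tested on simulated data, made from loci with control levels above those of several members. This checks the arithmetic and not how reliable the 2-fold mark is at the members' levels. No test between groups was possible, and depth is known only as a ratio, from single-transcript loci under 0.2 FPKM (the most frequent ratio between libraries).

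The members and lists were chosen with earlier results of these data known. All members are named; other loci by number (from LOC_Os10g40600 to LOC_Os10g40900, or within 30 of an alpha-expansin, examples averaging 10 FPKM or more), assembled units within 3 rows, and the 2 loci nearest in pattern. The low loci beside the cluster, LOC_Os10g40660 and LOC_Os10g40740, and LOC_Os01g14660 were named after their values were seen. None of the member identifiers is in the RefSeq table (ASM3414082v1); the gene names come with the listed loci, and all 10 names are in the table on the chromosome given by the identifier. Other wall genes, promoter motifs and sequences were not used here, as no table pairs them with the identifiers. Alternatives were other scalings, pseudocounts, filters and folds, the highest transcript of a locus and the addition of adjacent assembled units. Rescaling to all transcripts and centring by expression bin were added after the data had been seen.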

Additional observations from a re-analysis of the deposited data

How the results depend on the processing

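At least 2-fold lower at high fluence were 6 expansins (6.33% of measured loci). This count became 5 with the annotated sum rescaled (5.49%) or with centring by expression bin (5.39%). It became 4 with a pseudocount of 5 (2.24%) and 7 at 1.5-fold (17.7%). Rescaling to the sum of all transcripts, which assembled transcripts dominate, gave 0 lower and 1 higher (EXPA4) against control. Of the 18934 measured loci, 229 were then lower and 3189 (16.8%) higher. High against low fluence, the same rescaling gave 0 members lower and 1 higher (EXPA2), where 142 measured loci were lower and 4408 (23.3%) higher. The median log2 ratio at high fluence, -1.20, was -0.92 with a pseudocount of 5, -0.98 with centring and -0.36 with that rescaling, where all loci had a median of 0.56. High against low fluence, the median of -0.82 became 0.10 with that rescaling (all loci 0.72). The count of members lower at high than at low fluence, 0, became 1 with a pseudocount of 0.1 (7.05% of measured loci) and 7 at 1.5-fold (13.2%). Low fluence against control gave 3 lower (9.07% of loci) and 1 higher (8.49%) at 1.5-fold. Of 270 values for single members, 245 kept their side of 2-fold and moved by under 1.5-fold. No paired analysis was possible because each group has 1 library, and no library could be left out. Read totals are unknown, so no counting limit can be given for low members such as EXPA5.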

Other observations

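Beside EXPA8, LOC_Os01g14660 had 8.43 FPKM in control seedlings, 2.31 after low fluence and 1.06 after high fluence, a log2 ratio to control of -2.20 at high fluence. This locus was singled out after its values were seen, has no gene name in the sources used here, and had a mean of 3.93 FPKM. Its ratio at high fluence was below that of each of the 10 expansins. Whether it shares reads with EXPA8 was not tested.

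Of the RefSeq table's 29 genes named EXPA and 15 named EXPB, 6 and 4 are described here, and the levels of the others were not analysed.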
